A study of Bos grunniens with 18 samples.

Results

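The complement genes described here are the 3 chains of C1q (C1QA, C1QB and C1QC), properdin (CFP) and the receptors C5AR1, C3AR1 and CD93, which makes 7 of the 20607 genes in the deposited table. They were chosen by gene symbol, with earlier results of the same stage comparisons known, so their differences between the stages are given as a description and are not independent evidence of a direction. Whole blood of adult female yaks (Bos grunniens) was sequenced in anestrus (Y-A), in estrus (Y-E) and in pregnancy (Y-P), with 6 libraries from each of the 3 stages and 18 libraries in all. The animals were cows aged 4 to 8 years from an artificially inseminated herd, and 6 cows were followed through the stages. Estrus had been synchronised with a progesterone pessary, an injection of the PGF2α analogue cloprostenol and an injection of GnRH, followed by timed insemination, so the Y-E samples come from a hormone-induced estrus and the Y-P samples from cows that had been through that programme. Blood was taken into EDTA and lysed whole, and the poly-A RNA of all its cells was sequenced together. In such a bulk measurement, fewer cells of a type and less RNA per cell cannot be told apart.

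Complement is a set of plasma proteins and cell receptors that marks microbes, immune complexes and dying cells for removal. C1q is the recognition molecule of the classical pathway. It is built from the A, B and C chains, which assemble together, and unlike most complement proteins, which come from the liver, it is made mainly by macrophages, dendritic cells and other cells of the monocyte lineage. Properdin stabilises the C3 convertase of the alternative pathway and is released by neutrophils, monocytes and T cells. C5AR1 and C3AR1 are G-protein-coupled receptors for the fragments C5a and C3a, which attract and activate myeloid cells. CD93 is a transmembrane glycoprotein of endothelial and myeloid cells that was first described as a C1q receptor, although that role has been disputed.

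The C1q genes lie together in the yak genome, in the coordinates that the deposited table gives (Bos grunniens, Ensembl gene identifiers). On the plus strand of chromosome 2, C1QA (ENSBGRG00000003422) spans 6846912 to 6850959, C1QC (ENSBGRG00000003430) spans 6855475 to 6860494 and C1QB (ENSBGRG00000003451) spans 6874383 to 6876517. The stretch from the first to the last base is 29606 bases long, with 4515 bases between C1QA and C1QC and 13888 bases between C1QC and C1QB. An unnamed gene, ENSBGRG00000003435, lies in the same stretch and reached at most 36 counts in a library. The remaining members lie apart from the cluster and from each other. CFP (ENSBGRG00000016091) is on the minus strand of chromosome X from 93664428 to 93671005, C5AR1 (ENSBGRG00000014737) on the minus strand of chromosome 20 from 61132025 to 61133625, C3AR1 (ENSBGRG00000009274) on the plus strand of chromosome 5 from 360439 to 361884, and CD93 (ENSBGRG00000006986) on the minus strand of chromosome 12 from 33583895 to 33587337. Each symbol belonged to 1 row of the table, and 0 other genes of the table overlapped a member. Exon and UTR positions were not analysed here.

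The total counts of a library ranged from 30247267 to 48401076. All 7 members passed the filter on low counts, which kept 14508 genes. The share of hemoglobin genes lay between 3.10% and 16.7% in Y-A libraries and between 0.0272% and 0.376% in Y-P libraries. In Y-E it was 0.0899% to 0.713% in 5 libraries and 8.36% in Y-E replicate 6, which therefore stood apart from its stage, and the members' values in each comparison with Y-E are given with and without it. Markers of leukocytes, platelets and red cell precursors were all detected. A gene was called when its adjusted p was under 0.05 and its absolute log2 fold change was at least 1, from 1 edgeR quasi-likelihood fit over all 18 libraries with Benjamini-Hochberg adjustment over all 14508 genes. Y-P was compared with both other stages, so those comparisons share the Y-P libraries.

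Levels differed between the members by orders of magnitude. On the FPKM scale, which takes the length of the gene into account, C5AR1 stood first with a mean of 588 ± 108 (SD, n = 18) and CFP followed with 61.3 ± 12.3. C1QB had 18.04 ± 10.3 FPKM and C1QA 14.3 ± 7.64 FPKM, and C1QB was above C1QA in 15 of 18 libraries. C1QC had 5.36 ± 3.00 FPKM, C3AR1 had 4.03 ± 2.34 FPKM, and C1QC was the higher of the pair in 12 of 18 libraries. CD93 was last, at 0.788 ± 0.354 FPKM. The other neighbours in this order kept their places in 18 of 18 libraries, so only the order of C1QB and C1QA and that of C1QC and C3AR1 lay within the spread between libraries. In each library C5AR1 was above at least 99.3% of the genes in the table, whereas CD93 was above 35.8% to 46.7% of them.

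The C1q chains were lower in pregnancy than in anestrus and estrus, by about the same factor for each chain, and their means differed little between anestrus and estrus. C1QA, the chain that comes first in the cluster, had 11.7 CPM (counts scaled to the TMM-normalized library size) in its lowest Y-A library, a median of 23.2 CPM and a highest value of 37.9 CPM. In Y-E its lowest, median and highest values were 8.72, 22.8 and 37.5 CPM. In Y-P they were 5.64, 7.84 and 16.7 CPM. The Y-P libraries thus sat at the low end, but the groups overlapped: Y-P replicate 2 was above the lowest Y-A library, and 3 of the 6 Y-P libraries were above the lowest Y-E library.

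C1QB, whose product pairs with the A chain, had a lowest value of 9.25, a median of 27.1 and a highest value of 42.5 CPM in Y-A. In Y-E these values were 12.2, 22.5 and 41.4 CPM. In Y-P they were 4.82, 8.87 and 17.96 CPM. Both Y-A and Y-E held libraries as low as the upper Y-P libraries, so the groups overlapped here too. C1QC, the chain with the fewest counts, had a lowest value of 6.79, a median of 15.2 and a highest value of 25.1 CPM in Y-A. In Y-E these were 7.36, 14.0 and 28.6 CPM, and in Y-P 2.83, 5.81 and 8.34 CPM. Of the 36 pairs of 1 Y-P and 1 Y-A library, C1QC was lower in the Y-P library in 35, C1QA in 34 and C1QB in 32. Against the Y-E libraries the counts were 34, 32 and 33 of 36.

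**Figure D1:**
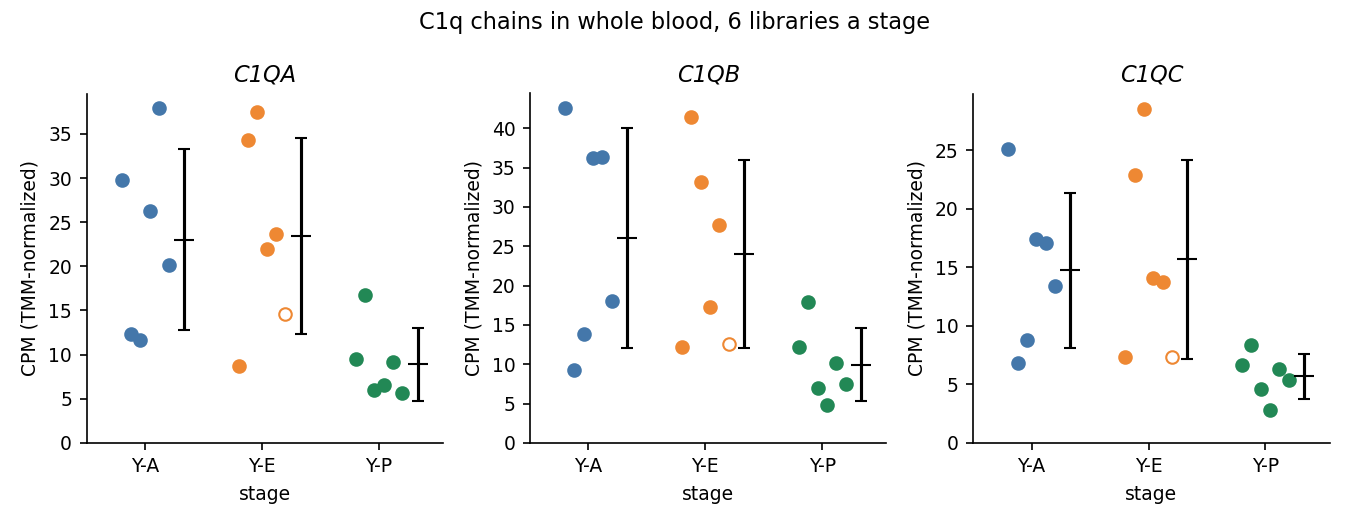
CPM (vertical axis, from 0) of C1QA, C1QB and C1QC in each library by stage (horizontal axis), with the mean and SD of each stage in black (n = 6) and Y-E replicate 6 as an open circle. For C1QA the Y-P libraries sit between 5.64 and 16.7 CPM, and the Y-A and Y-E libraries reach 37.9 and 37.5 CPM.

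In Y-P against Y-A, C1QA was 2.58-fold lower (95% confidence interval 1.52 to 4.36), with a log2 fold change of -1.37 (SE 0.36) and an adjusted p of 0.0339. C1QB was 2.61-fold lower (1.46 to 4.68), at -1.39 (SE 0.40) and an adjusted p of 0.0469. C1QC was 2.598-fold lower (1.54 to 4.39), at -1.38 (SE 0.36) and an adjusted p of 0.0328. These were 3 of the 7 members, and no other member was called. Of all genes tested, 1.09% were called lower in this comparison, 3.61% had an adjusted p under 0.05 alone and a lower level, and 3.56% had groups that did not overlap, which applied to 0 of the 7 members. The chains were chosen with this contrast in view, so nothing is read from their share. In the order of all 14508 fold changes, 246 genes were lower than C1QB, 248 lower than C1QC and 252 lower than C1QA.

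In Y-P against Y-E, C1QA was 2.63-fold lower (1.55 to 4.44), at -1.39 (SE 0.36) and an adjusted p of 0.0155. C1QB was 2.41-fold lower (1.35 to 4.31), at -1.27 (SE 0.40) and an adjusted p of 0.0395. C1QC was 2.76-fold lower (1.63 to 4.67), at -1.46 (SE 0.36) and an adjusted p of 0.0117. Without Y-E replicate 6 the log2 fold changes were -1.499, -1.40 and -1.61, and all 3 chains were still called, with adjusted p of 0.0133, 0.0286 and 0.00689. The background was larger here: 2.22% of all genes were called lower, 8.68% had an adjusted p under 0.05 alone and a lower level, and 6.03% had groups that did not overlap, again against 0 of the 7 members.

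Between Y-E and Y-A no member was called, and only 0.0138% of all genes were, 0.0207% by the adjusted p alone, while 0.303% had groups that did not overlap. The log2 fold changes were 0.03 (SE 0.35) for C1QA, -0.12 (SE 0.39) for C1QB and 0.09 (SE 0.35) for C1QC. The interval for C1QA ran from -0.72 to 0.77, so a change of the size seen against Y-P lay outside it. Changes inside the interval, in either direction, could not be told from none with these libraries. The same holds for C1QC, from -0.65 to 0.83, and for C1QB, from -0.94 to 0.71. Of the 7 members 1, C5AR1, had an unadjusted p under 0.05 in edgeR, and DESeq2 called 0. Without Y-E replicate 6 the log2 fold changes of the chains were 0.13, 0.0166 and 0.23, in the same order, and no member was called. Over all genes 2 were called in this comparison, 11 with the replicate number as a block and 18 without Y-E replicate 6, and 900 had an unadjusted p under 0.05.

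**Figure D2:**
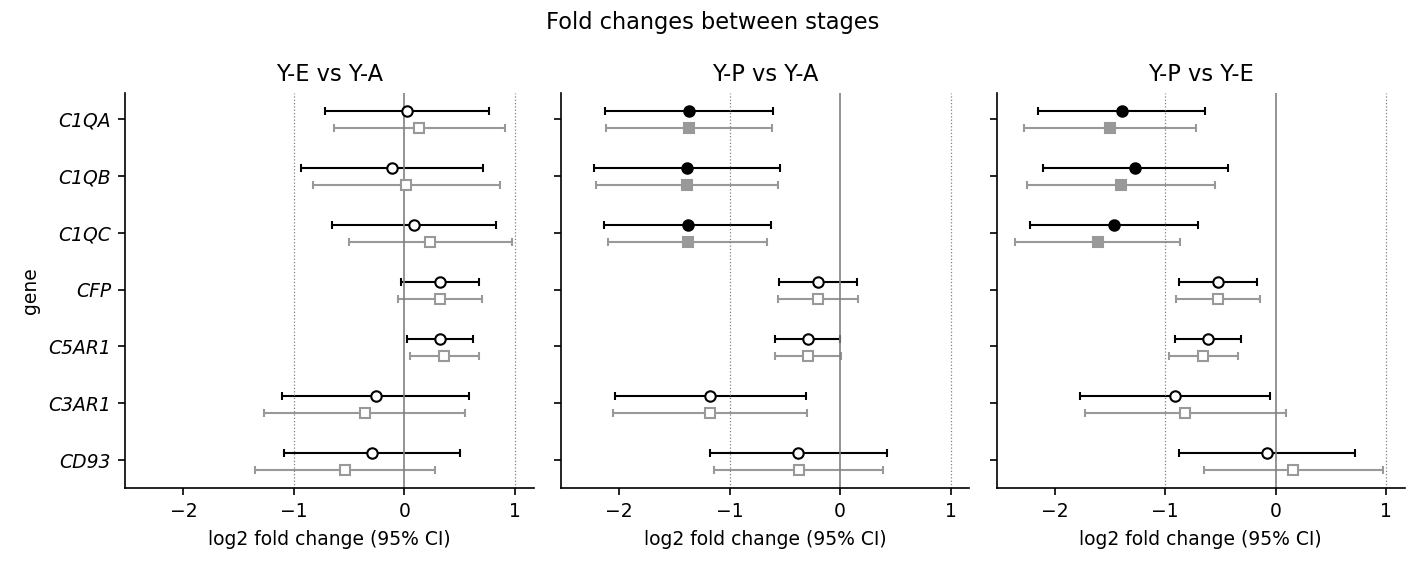
Log2 fold change (horizontal axis) with its 95% confidence interval for each member (vertical axis) in the 3 comparisons, from the fit over 18 libraries (black circles) and over 17 without Y-E replicate 6 (grey squares). Filled symbols mark called genes and dotted lines a log2 fold change of 1 in either direction; the C1q chains are the members with filled symbols, in both comparisons with Y-P.

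Which libraries were present decided the calls of the C1q chains against Y-A. With each of the 18 libraries left out in turn, C1QA and C1QC were each called in 11 of 18 fits and C1QB in 6, with adjusted p from 0.0221 to 0.0814, from 0.0235 to 0.0719 and from 0.0309 to 0.0992. For C1QA and C1QC the call was lost without Y-A replicate 1, 4 or 5 and without Y-P replicate 3, 4, 5 or 6, and C1QB was also lost without Y-A replicate 6, Y-E replicate 3, 4 or 5, or Y-P replicate 1. Against Y-E, C1QA and C1QC stayed called in 18 of 18 fits, with adjusted p of at most 0.0442 and 0.0379. C1QB stayed called in 11 of 18, and lost its call without Y-E replicate 2, 3 or 5 or Y-P replicate 3, 4, 5 or 6, with an adjusted p of up to 0.109. The direction was lower in Y-P in every one of these fits, with log2 fold changes between -1.67 and -1.05 over the 3 chains and both comparisons. Under the 11 alternatives that change the test, scaling, filter or design, C1QA was called in 11 of 11 in both comparisons and C1QC in 10 of 11 in both, while C1QB was called in 5 of 11 against Y-A and in 7 of 11 against Y-E, with adjusted p of up to 0.0636 and 0.0520.

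**Figure D3:**
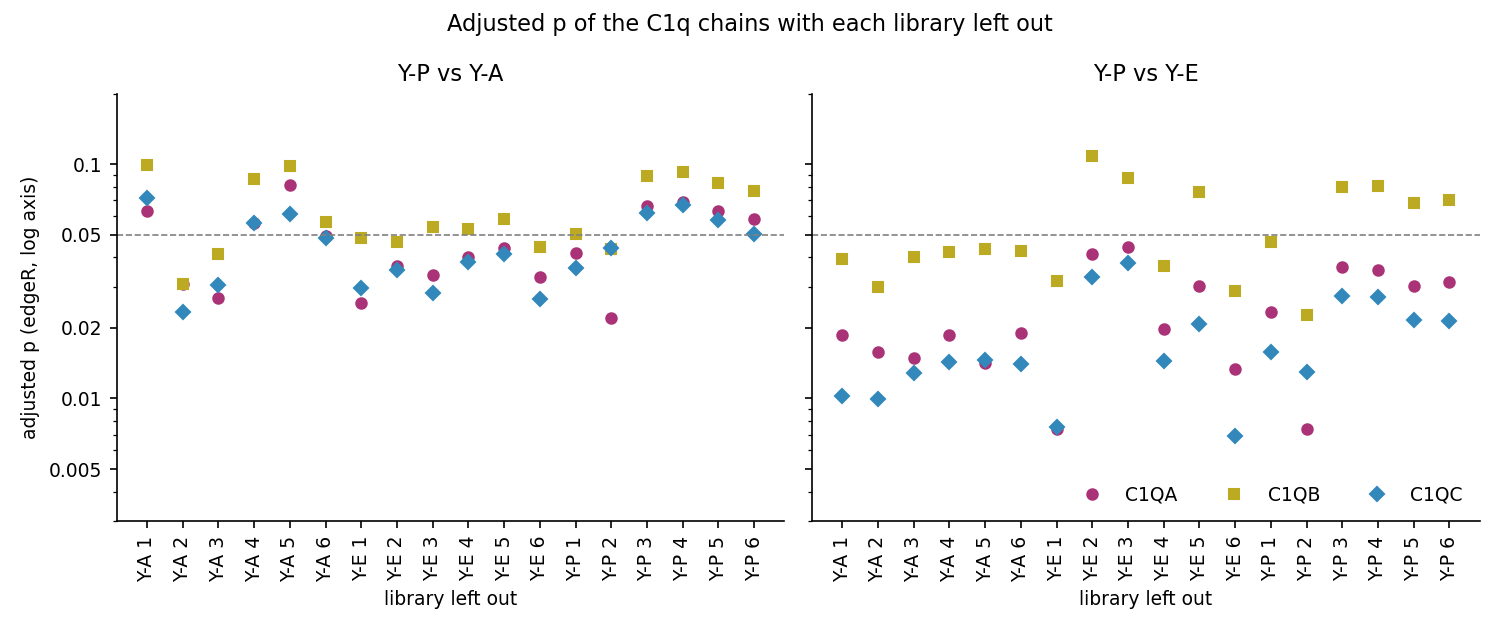
Adjusted p (vertical axis, log scale) of C1QA, C1QB and C1QC in the comparisons of Y-P with Y-A and with Y-E, with the library named on the horizontal axis left out. The dashed line is the threshold of 0.05; against Y-A the points of C1QA and C1QC lie above it in 7 of the 18 fits and those of C1QB in 12, and against Y-E only points of C1QB do, in 7.

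The chains kept to one another from library to library. The ratio of C1QA to C1QB counts was 0.960 ± 0.250 in anestrus, 0.994 ± 0.224 in estrus and 0.928 ± 0.222 in pregnancy (SD, n = 6 each), and 0.960 ± 0.233 in Y-E without replicate 6. The ratio of C1QC to C1QB counts was 0.608 ± 0.118, 0.654 ± 0.1498 and 0.596 ± 0.0854 in the same order, with 0.667 ± 0.164 in Y-E without replicate 6. The stage means of both ratios differed by less than the SD within a stage, although the summed CPM of the chains was 63.8 ± 29.7 in anestrus, 63.2 ± 30.6 in estrus and 24.6 ± 10.5 in pregnancy, with 68.9 ± 30.4 in Y-E without replicate 6. The sum varied more between libraries of 1 stage than the ratios did, from 28.4 to 97.4 CPM in Y-A and from 28.3 to 99.2 CPM in Y-E. The Pearson correlation of log2 CPM over the 18 libraries was 0.94 between C1QA and C1QB, 0.94 between C1QA and C1QC and 0.96 between C1QB and C1QC. After the stage means were subtracted it was 0.90, 0.88 and 0.94. Values from 1 library share its depth and its mix of cells, so these correlations are given as a description.

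**Figure D4:**
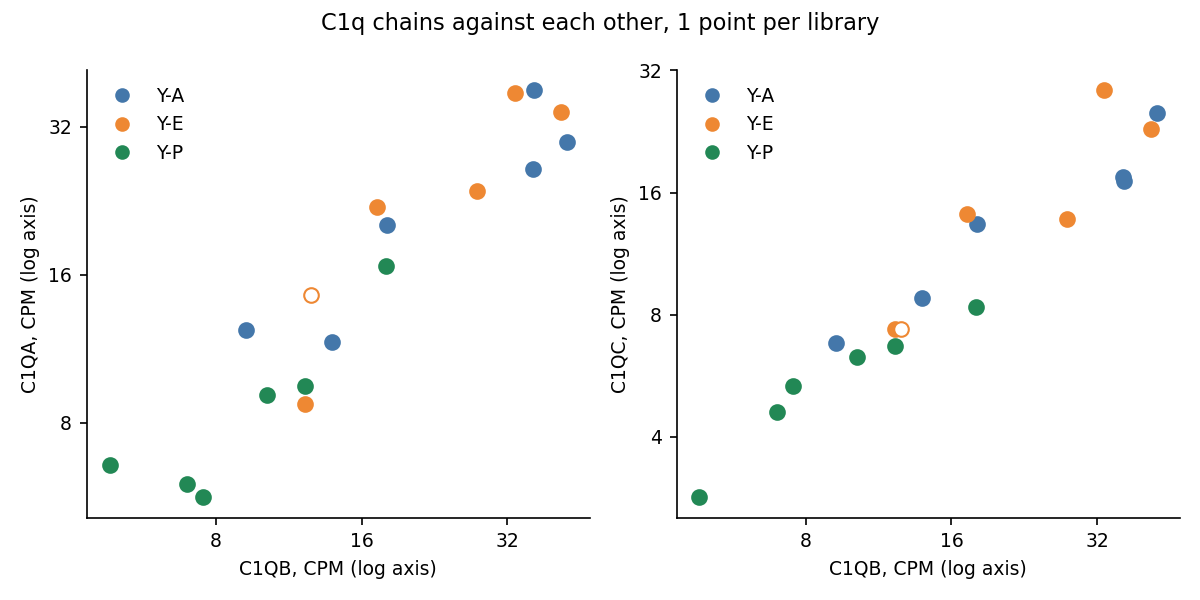
CPM of C1QA (left) and C1QC (right) against CPM of C1QB, on log axes, with 1 point per library coloured by stage and Y-E replicate 6 as an open circle. The points of all 3 stages fall along 1 band, with most Y-P libraries at its lower end.

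Properdin and C5AR1, the members with the highest levels, had their highest means in estrus. CFP had a lowest, median and highest value of 129, 160.4 and 175 CPM in Y-A. In Y-E the values were 128, 194 and 268 CPM, and in Y-P 87.5, 153 and 159.6 CPM. The Y-E libraries spread the widest and covered the whole range of Y-A. C5AR1 had a lowest, median and highest value of 610.0, 725 and 816 CPM in Y-A. In Y-E it had 644, 926 and 1188 CPM, and in Y-P 425, 598 and 685 CPM. For C5AR1, 1 Y-E library, replicate 4, lay under the highest Y-P library, and the lower Y-E libraries overlapped Y-A. 

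CFP was not called in a comparison. Against Y-E its level in Y-P had a log2 fold change of -0.52 (SE 0.17) and an adjusted p of 0.0457, which is under 0.05 but short of the fold threshold, and without Y-E replicate 6 the adjusted p was 0.0613. It stayed under 0.05 in 6 of the 18 fits with a library left out. C5AR1 in Y-P against Y-E was 1.53-fold lower (1.24 to 1.88), at -0.61 (SE 0.14) and an adjusted p of 0.00785, and at -0.65 with an adjusted p of 0.00805 without Y-E replicate 6. Its adjusted p stayed under 0.05 in 18 of 18 fits, at up to 0.0237. With the C1q chains, 5 of the 7 members therefore had an adjusted p under 0.05 and a lower level in Y-P than in Y-E, against the 8.68% of all genes given above. The members were chosen with earlier results of this comparison known, so nothing is read from that share. Not all of the 5 held with a library left out: the adjusted p stayed under 0.05 in 6 of 18 fits for CFP and in 11 of 18 for C1QB. The fit without Y-E replicate 6 was among those in which CFP did not pass. Against Y-A the adjusted p values in Y-P were 0.514 for CFP (log2 fold change -0.20, SE 0.17) and 0.226 for C5AR1 (-0.29, SE 0.14). In Y-E against Y-A they were 0.855 for CFP (0.32, SE 0.17) and 0.738 for C5AR1 (0.32, SE 0.14), and without Y-E replicate 6 they were 0.691 (0.32) and 0.478 (0.36).

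**Figure D5:**
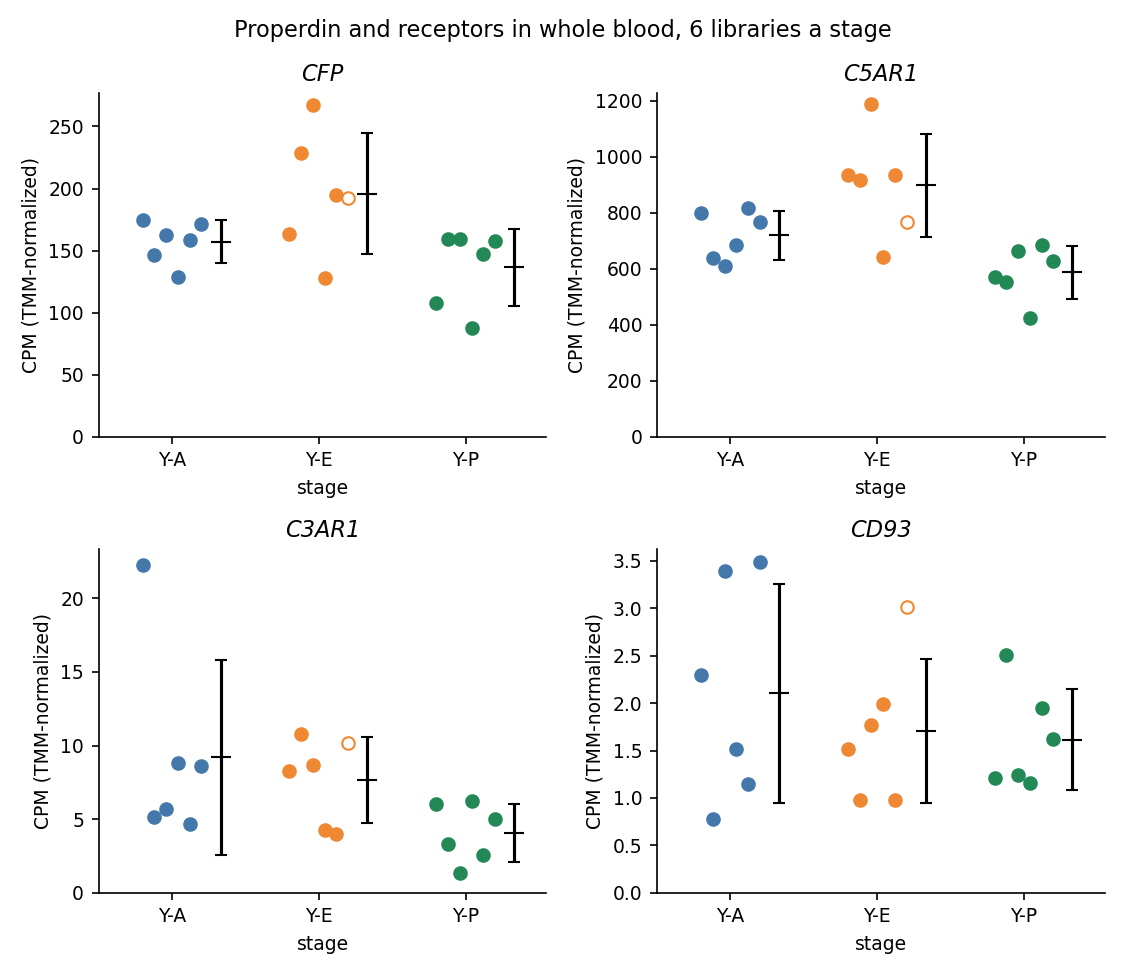
CPM (vertical axes, from 0, each with its own scale) of CFP, C5AR1, C3AR1 and CD93 in each library by stage (horizontal axis), with the mean and SD of each stage in black (n = 6) and Y-E replicate 6 as an open circle. C5AR1 sits highest in Y-E, at a median of 926 CPM, and 1 Y-A library of C3AR1 stands apart at 22.3 CPM.

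C3AR1, the C3a receptor, had larger point estimates in the comparisons with Y-P than the other receptors. It did not pass the edgeR test with stage as the only factor. Its lowest, median and highest values were 4.69, 7.17 and 22.3 CPM in anestrus, 3.96, 8.45 and 10.8 CPM in estrus and 1.38, 4.17 and 6.24 CPM in pregnancy. The value of 22.3 CPM came from Y-A replicate 1, and the next Y-A library had 8.80 CPM. Its log2 fold change in Y-P was -1.17 (SE 0.41) against Y-A, with an adjusted p of 0.0946, and -0.91 (SE 0.41) against Y-E, with an adjusted p of 0.143. Without Y-E replicate 6 the latter was -0.82 with an adjusted p of 0.230. With Y-A replicate 1 left out, the log2 fold change against Y-A was at its smallest, -0.72. DESeq2 did call it against Y-A, at -1.17 and an adjusted p of 0.0371, and not against Y-E, with an adjusted p of 0.0840. Of the 11 alternatives that change the test, scaling, filter or design, 2 called C3AR1 against Y-A. Against Y-E 1 of the 11 did, the edgeR fit with the replicate block over 18 libraries, whose values are given at the end. Between Y-E and Y-A the edgeR value was -0.26 (SE 0.41), with an adjusted p of 0.999, and -0.36 without Y-E replicate 6, with an adjusted p of 0.923.

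CD93 had the fewest counts of the members, 28 to 131 in a library. Its lowest, median and highest values were 0.782, 1.905 and 3.48 CPM in anestrus, 0.976, 1.64 and 3.02 CPM in estrus and 1.15, 1.43 and 2.51 CPM in pregnancy. The ranges of the 3 stages lay almost on top of each other. The log2 fold changes were -0.38 (SE 0.38) for Y-P against Y-A, -0.08 (SE 0.38) for Y-P against Y-E and -0.29 (SE 0.38) for Y-E against Y-A, with adjusted p of 0.605, 0.919 and 0.999. Without Y-E replicate 6, which had its highest Y-E value, the second of these was 0.16 and the third -0.54, with adjusted p of 0.833 and 0.802. The interval for Y-P against Y-A ran from -1.17 to 0.42, so a fall of the size of the C1q chains lay just outside it. A fall inside the interval could not be told from none.

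Properdin and the receptors were also compared with each other over the 18 libraries. CFP and C5AR1 had a correlation of 0.86, and 0.77 after subtraction of the stage means. The mean log2 CPM of the C1q chains had a correlation of 0.68 with C5AR1, 0.58 with CFP, 0.51 with C3AR1 and 0.06 with CD93. With the stage means subtracted these were 0.48, 0.41, 0.19 and -0.01. Among the 14501 tested genes that are not members, the patterns most like that of the C1q chains were those of MKRN1 (0.84), PTAFR (0.83), which encodes the receptor for platelet-activating factor, and IPCEF1 (0.82). For C5AR1 they were ATP6AP1 (0.95), an accessory subunit of the proton pump of acidic organelles, VSIR (0.93), an immune checkpoint receptor, and the unnamed gene ENSBGRG00000018670 (0.93). For CFP they were ZFP36 (0.88), which promotes the decay of AU-rich mRNAs, ENSBGRG00000026565 (0.87) and AHCY (0.87). For C3AR1 they were ENSBGRG00000012539, NCOA1 and NCOA6, the latter both coactivators of nuclear receptors, each at 0.88. CD93 had its nearest patterns in ENSBGRG00000013573 (0.82), ENSBGRG00000007156 (0.71) and ZNF783 (0.70). All these are Pearson correlations of log2 CPM over 18 libraries, picked as the highest of many.

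Other complement genes were taken from a list. Of 43 other complement genes listed by symbol, 24 had a row under that symbol and 20 were tested. None of the 20 was called in Y-E against Y-A or in Y-P against Y-A, by the adjusted p alone or with the fold threshold, while 3 and 4 had an unadjusted p under 0.05 in edgeR and DESeq2 called 0 in both. In Y-P against Y-E 1 was called and 3 passed by the adjusted p alone, all lower. The median log2 fold change of the 20 was -0.10 against Y-A and -0.09 against Y-E, beside 0.03 and 0.04 over all genes tested. The called gene was LRP1, a large endocytic receptor that has been reported to bind C1q, at -1.09 (SE 0.29) and an adjusted p of 0.0167. Without Y-E replicate 6 it was at -0.96, with an adjusted p of 0.0363, and no longer passed the fold threshold. C5AR2, the second receptor for C5a, fell with C5AR1 in the same comparison, at -0.66 (SE 0.15) and an adjusted p of 0.00644. VSIG4, a receptor for C3b on tissue macrophages that is named here because it passed the test and was thus chosen after its values were seen, had -0.82 (SE 0.19) and an adjusted p of 0.00918. Over the 17 libraries without Y-E replicate 6 the adjusted p was 0.0126 for C5AR2 (-0.64) and 0.0157 for VSIG4 (-0.81).

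The partners of C1q and C3 named next did not pass the test in Y-P against Y-A or Y-E. C1S, a protease of the C1 complex, had 0 CPM in its lowest library of every stage and at most 0.448 CPM in anestrus, 1.42 CPM in estrus and 4.17 CPM in pregnancy. Its log2 fold change pointed higher in Y-P, at 3.05 (SE 1.40) against Y-A and 2.26 (SE 1.34) against Y-E, with adjusted p of 0.202 and 0.283. C3, the central component, had a log2 fold change of -0.34 (SE 0.19) against Y-A and -0.15 (SE 0.19) against Y-E. C2, which forms the classical convertase with C4, had -0.35 (SE 0.55) and 0.17 (SE 0.55). SERPING1, the inhibitor of C1, had 0.26 (SE 0.44) and 0.49 (SE 0.44). ITGAM and ITGB2, which form complement receptor 3, had -0.11 (SE 0.14) and 0.24 (SE 0.13) against Y-A, and -0.10 (SE 0.14) and -0.07 (SE 0.13) against Y-E.

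Markers of the cells that can carry these genes moved in part with them. The summed CPM of 9 monocyte markers ranged from 1429 to 2052 in anestrus, from 1371 to 2481 in estrus and from 985 to 1848 in pregnancy. Of the 9, CYBB alone passed by the adjusted p against Y-A, at -0.39 (adjusted p of 0.0445), and CYBB and CD68 did against Y-E, all lower. None was called, and the median log2 fold change was -0.39 and -0.51. The highest Y-E sum came from replicate 6, without which the sum in Y-E reached 1975, and the median against Y-E was -0.39. CD14, the lipopolysaccharide co-receptor that marks monocytes, was at -0.17 (SE 0.23) and -0.16 (SE 0.23), the latter at -0.0424 without Y-E replicate 6. The sum of the C1q chains divided by CD14 was 1.70 ± 1.22 in anestrus, 1.46 ± 0.695 in estrus and 0.644 ± 0.290 in pregnancy. Divided by CSF1R, the receptor for macrophage colony-stimulating factor, it was 0.152 ± 0.0731, 0.152 ± 0.0682 and 0.0837 ± 0.0387. The Y-E ratios without replicate 6 were 1.64 ± 0.599 and 0.1704 ± 0.0562 (n = 5). These ratios are a description, and the part of the monocyte markers in the result was not tested.

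The summed CPM of 12 macrophage markers ranged from 735 to 1020.2 in anestrus, from 734 to 1145 in estrus and from 386 to 735 in pregnancy. Much of this sum was SLC40A1, with a mean of 518 CPM over the 18 libraries. Of 11 tested, 1 passed by the adjusted p against Y-A (SLC40A1, lower) and 3 against Y-E (SLC40A1 and VSIG4 lower, GPNMB higher), with medians of -0.44 and -0.64. With Y-E replicate 6 left out SLC40A1 was at an adjusted p of 0.0505 against Y-A, and the same 3 genes passed against Y-E, with a median of -0.44. The summed CPM of 8 dendritic cell markers ranged from 281 to 358 in anestrus, from 297 to 345 in estrus and from 333 to 444 in pregnancy. Of these 8, CCR7 passed in both comparisons and was higher, and it had the highest mean in the list, at 171 CPM. Against Y-E XCR1 was lower and IRF8 higher, and without Y-E replicate 6 XCR1 alone passed against Y-E. The median log2 fold change of the 8 was below 0, at -0.34 against Y-A and -0.25 against Y-E. The latter was -0.19 without Y-E replicate 6. The summed CPM of 7 neutrophil markers, cells that carry C5AR1 and release properdin, ranged from 4525 to 10312 in anestrus, from 5886 to 13607 in estrus and from 3531 to 6909 in pregnancy. Of the 7, 1 was called lower against Y-A and 5 against Y-E, with medians of -0.78 and -1.48. The lowest Y-E sum came from replicate 6, without which the Y-E range began at 8071, and 6 were called lower against Y-E and MMP9 higher in Y-E than in Y-A. The summed CPM of 8 endothelial markers, for the vessel wall cells that carry CD93, ranged from 99.1 to 234 in anestrus, from 86.0 to 189 in estrus and from 95.7 to 150.0 in pregnancy. VWF, the clotting factor of endothelial cells and platelets, and CDH5, an endothelial cadherin, were called lower in both comparisons, out of 6 tested. Without Y-E replicate 6 CDH5 was not called against Y-E, with an adjusted p of 0.0988. The median of the 6 was -0.31 against Y-A and -0.60 against Y-E, the latter -0.43 without Y-E replicate 6. TEK was not called and pointed higher, at 0.37 (SE 0.43) and 0.98 (SE 0.43). PECAM1, with the highest mean in the list at 110 CPM, was at 0.03 and -0.14. No marker in these lists was at 0 in every library. Their part in the differences of the members was not tested.

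Markers of further blood cells were counted in the same way. Of 5 platelet markers 3 were called lower in Y-P in each comparison. Of 6 red cell precursor markers 5 were called lower against Y-A and 4 against Y-E, of which 1 was left without Y-E replicate 6. Of 6 T cell markers 2 and 3 passed by the adjusted p alone, all higher, and 2 in each comparison without Y-E replicate 6; of 4 NK cell markers 0 and 1 passed, and of 9 B cell markers 0 in both, where 1 and 2 had an unadjusted p under 0.05. With the hemoglobin counts left out of the table, the log2 fold change of C1QA was -1.37 in both comparisons, and the 3 C1q chains were called in each. Scaling bore on the split over all genes. With TMM 158 of 208 called genes were lower in Y-P than in Y-A and 322 of 387 lower than in Y-E, whereas with library size alone 116 of 261 and 196 of 333 were. The median log2 fold change of all genes moved from 0.03 to 0.19 and from 0.04 to 0.18. The C1q chains stayed lower under that scaling, at -1.18 for C1QA and -1.19 for C1QB against Y-A, where the adjusted p of C1QB was 0.0537.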

How the data were processed

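Poly-A RNA of EDTA whole blood was sequenced in 18 libraries, assigned to Y-A, Y-E and Y-P by their titles. According to the methods, reads were trimmed with Cutadapt (1.9 in the submitters' processing notes), aligned with HISAT2 (2.2.1) to the yak genome and assembled with StringTie (2.1.6). The authors deposited FPKM values, fragments scaled to gene length and mapped reads, and whole-number counts per gene; the tool behind the counts is not given in the sources used here. The libraries mark the strand; whether counting used it is not stated.

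Differences were tested on the counts with edgeR 4.0.16 under R 4.3.3 (TMM normalization, filterByExpr, quasi-likelihood, two-sided, stage as the only factor, all 18 libraries). CPM are computed from the deposited counts after TMM; FPKM were used for levels between genes. Intervals and SDs cover the spread between libraries. The script was tested on simulated data. Alternatives were DESeq2 1.42.0, limma 3.58.1 on log2(FPKM + 1) and log2(FPKM + 0.1) with FPKM of at least 0.3, other scalings, no filter, a replicate block and each library left out; 2 fits without Y-E replicate 6 were added after seeing the data. The study followed 6 cows, but no source says that a replicate number marks a cow. Same-numbered libraries deviated together in Y-A and Y-E (correlations of their deviations from the stage means from 0.110 to 0.515, each over 0.1), but not in every pair with Y-P (lowest -0.0492 and -0.0544). By this correlation, 6 of the 6 Y-A libraries were closest to the Y-E library of their own number. The count was 4 for Y-A with Y-P and 3 for Y-E with Y-P. Whether the numbers also pair libraries with Y-P cannot be told from these values. The block value stands beside the result only for Y-E against Y-A, and the block values for Y-P are given at the end. Otherwise p-values measure the spread between libraries.

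Members, gene lists and tests were chosen with earlier results of these data known. List genes were matched by symbol, and those without a row under their symbol were left out, though an unnamed row may hold them. This shortened the marker lists too, with 7 of 12 neutrophil and 6 of 10 T cell symbols matched. Named genes are the members, list genes called in a comparison, a set of key complement genes, the 3 genes most like each pattern, and marker genes as examples. C1R, ITGAX, CR1, CR2, CD46, CD55, CD59 and CFD were not analysed here.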

Additional observations from a re-analysis of the deposited data

Results flagged for a closer look

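Among the 21 groups of 6 libraries (7 members in 3 stages), 2 had a library that stood apart from the others by Dixon's criterion, which chance meets in about 1 in 20 groups. C1QA in Y-P replicate 2 was at 16.7 CPM, while the next library had 9.49 CPM and the lowest 5.64 CPM, a gap of 0.651 of the range. C3AR1 in Y-A replicate 1 was at 22.3 CPM, while the next library had 8.80 CPM and the lowest 4.69 CPM, a gap of 0.766 of the range.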

How the results depend on the processing

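Of the fold changes of the members, 537 alternative values kept their direction and side of the threshold, 45 lost the call, 3 gained it and 24 changed sign; the cause was not tested. With a library left out, members called ranged from 0 to 3 in Y-P against Y-A and from 2 to 3 against Y-E, and other complement genes called from 0 to 1 against Y-E. All genes called ranged from 2 to 18 (Y-E against Y-A, the highest without Y-E replicate 6), 110 to 229 (Y-P against Y-A, the lowest without Y-P replicate 2) and 289 to 476 (Y-P against Y-E). limma on log2(FPKM + 1) called 136 and 151 genes and 1 member in each comparison with Y-P, and on log2(FPKM + 0.1) 316 genes and 1 other complement gene against Y-A. Of the other complement genes, 0 were called against Y-E by limma with either pseudocount, with library size alone and by DESeq2 over 17 libraries. DESeq2 called 14 genes in Y-E against Y-A, and 73 over 17 libraries, none of them a member. It also called C3AR1 against Y-A, at -1.17 and an adjusted p of 0.0371.

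The sign changes were all near 0. In Y-E against Y-A the values with a library left out ran from -0.16 to 0.23 for C1QA, -0.34 to 0.0684 for C1QB, -0.17 to 0.30 for C1QC and -0.40 to 0.21 for C3AR1; C1QA was at -0.0269 with the replicate block and C1QB at 0.0344 by DESeq2 over 17 libraries. In Y-P against Y-E, CD93 ran from -0.25 to 0.16 with a library left out, and was at 0.0591 with library size alone, 0.0486 and 0.13 by limma with the larger and the smaller pseudocount, 0.15 by DESeq2 over 17 libraries, and 0.0616 and 0.15 with the replicate block over 18 and 17 libraries.

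With the replicate block 11 genes were called in Y-E against Y-A (34 over 17 libraries), 256 in Y-P against Y-A and 421 in Y-P against Y-E. Over 18 libraries the block added C3AR1 against Y-E, at -1.02 and an adjusted p of 0.0497, and changed no other member's call; over 17 libraries C1QB lost its call in both comparisons with Y-P, with adjusted p of 0.0538 and 0.0520. The FPKM levels of the members relative to their means moved by less than 1 SD from the CPM levels in 21 of 21 stage values. Depth limits CD93 most, which has the fewest counts.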
